A study of Mus musculus with 4 samples.

Results

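Cholesterol synthesis genes were followed in libraries described as tumor-associated macrophages (TAMs) of NB9464 tumors, a mouse neuroblastoma model. The set consists of 8 genes chosen by symbol from the SREBP2 pathway, *Srebf2*, *Insig1*, *Hmgcs1*, *Idi1*, *Fdft1*, *Sqle*, *Lss* and *Dhcr7*, out of 54532 genes in the count table. None of the 8 encodes a protein that takes up cholesterol, so uptake genes are described below from a separate list. All 8 passed the filter on low counts and were among the 16451 genes tested.

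RNA sequencing was performed on 2 libraries labelled SykMC-WT (M7 and M8) and 2 labelled SykMC-KO (M9 and M10). Both genotypes were on the C57BL/6 background and received the same number of NB9464 cells under the skin, no treatment was given, and TAMs were isolated on day 40 with magnetic beads against CD11b and F4/80. The study's methods give an age of 4 to 6 weeks for its mice. SykMC-KO mice carry floxed *Syk* and Cre recombinase driven by lysozyme M, which is active in macrophages and also in neutrophils, and SykMC-WT mice are their wild type controls; which of these alleles the controls carry, and how many animals stand behind a library, are not given in the sources used here. The labels say in one place that the RNA was extracted from BMDMs (bone marrow derived macrophages), and the series title names an adoptive transfer.

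*Syk*, the targeted kinase, was measured at 27.9 and 23.2 CPM (the count of a gene over the total count of its library, on the usual CPM scale, after TMM scaling of the libraries) in M7 and M8 and at 196 and 160 CPM in M9 and M10. It was thus higher in the libraries labelled SykMC-KO (log2 fold change 2.80, adjusted p = 0.000674 by edgeR), against the direction of a deletion, and every direction below is that of the libraries as labelled. Macrophage markers moved the same way: their summed level was 917 to 1290 CPM in the SykMC-WT libraries and 6220 to 10400 CPM in the SykMC-KO libraries, and 10 of 10 were higher. Fibroblast markers summed to 12500 to 14400 CPM in SykMC-WT and to 4060 to 4960 CPM in SykMC-KO, with 5 of 8 lower. Also higher in SykMC-KO were 6 of 6 pan-leukocyte genes, 5 of 5 neutrophil markers tested, 4 of 5 T cell markers and 6 of 8 proliferation genes (458 to 550 CPM against 939 to 1070 CPM in sum), and 4 of 8 endothelial markers were lower. The neuroblastoma markers were mixed: *Th* and *Dbh*, enzymes of catecholamine synthesis, had no count in any library, *Hand2* was at 178 to 301 CPM with overlapping genotypes, and *Gata3* was higher in SykMC-KO at 0.182 to 2.18 CPM (log2 2.82, adjusted p = 0.0247 by edgeR). In bulk libraries, fewer cells of a type and less RNA per cell cannot be told apart. Total counts were 20755886 to 23518045 per library, and mitochondrial genes took 2.2% to 2.34% of them in SykMC-WT and 6% to 15.9% in SykMC-KO.

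Cholesterol is made from acetyl-CoA through mevalonate, the isoprenoid units, squalene and lanosterol. SREBP2, the product of *Srebf2*, is held in the endoplasmic reticulum with its escort SCAP by the INSIG proteins while sterols are plentiful. When sterols fall, it travels to the Golgi, is cut by the site-1 and site-2 proteases and turns on the genes of the whole route. In macrophages, which take in cholesterol with the cells and lipoproteins they engulf, sterol excess is handled by LXR receptors, which turn on export through ABCA1 and ABCG1, and by storage as esters.

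Sequence near the start site is shown for the 6 genes with a RefSeq promoter (GRCm38.p6, all on the plus strand), because these genes share a factor that binds there. Each promoter covers 250 bases before to 50 after the start. Capitals mark TCACNCCA, the form of the sterol response element searched for, and CCAAT, the motif of the cooperating factor NF-Y, which reads ATTGG where it lies on the other strand. The stretch of *Srebf2* at chr15:82147081-82147140 begins at position -188 from the start, and that of *Hmgcs1* at chr13:119690188-119690247 begins at position -163. Those of *Insig1* (chr5:28071168-28071227), *Idi1* (chr13:8885579-8885608), *Lss* (chr10:76531515-76531574) and *Dhcr7* (chr7:143830152-143830181) begin at positions -244, -27, -90 and -62. The stretch of *Idi1* crosses the start and ends at position 3, and the others lie upstream.
Srebf2: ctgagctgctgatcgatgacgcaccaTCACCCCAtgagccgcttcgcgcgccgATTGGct
Hmgcs1: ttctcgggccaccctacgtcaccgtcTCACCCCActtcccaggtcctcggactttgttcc
Insig1: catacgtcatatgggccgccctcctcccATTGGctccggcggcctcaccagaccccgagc
Idi1: ggtccaaggtgccATTGGctggcgaccgac
Lss: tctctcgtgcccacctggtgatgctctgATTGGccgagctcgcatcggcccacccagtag
Dhcr7: aaatccacttccgATTGGtcgtctgtgacc

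Both strands of every RefSeq promoter of the 6 genes were searched. TCACNCCA was found in 2 genes, *Srebf2* at position -162 and *Hmgcs1* at position -137, against 4.36% of all 32851 promoters. CCAAT was found in 6 of 6 genes, against 37.4% of all promoters, and GGGCGG, the motif of SP1, also in 6 of 6, against 35.7%. CACGTG, an E-box, was found in 2 genes, *Insig1* and *Dhcr7*, against 7.15%. A gene counted if any of its promoters held the motif, whereas the percentages are of single promoters, so these shares are not like for like. Counted by gene over the set of 8 and the lists below, CCAAT was found in 31 of 45 and GGGCGG in 34 of 45. TCACNCCA was found in 4 of these 45 and CACGTG in 7. *Dhcr7* has several RefSeq starts, and its CACGTG lies upstream of another start than the CCAAT shown. *Lss*, the gene that fell, and *Idi1* and *Dhcr7*, the genes that rose, thus have CCAAT and GGGCGG alike in these windows and none of them has TCACNCCA.

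The comparison asked how the transcripts of the route differed between the libraries labelled SykMC-WT and SykMC-KO. *Idi1* and *Dhcr7* were higher in SykMC-KO by about a doubling or less, *Lss* was lower by about as much, and the 5 other genes were not called. By edgeR's quasi-likelihood test, 2 of 8 genes were higher, against 22.7% of all genes tested, and 1 of 8 was lower, against 16.7%, so that 3 of 8 were called against 39.4%. These shares are near the background. The median log2 fold change of the 8 genes was 0.35, and that of all genes tested was 0.0158.

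**Figure D1:**
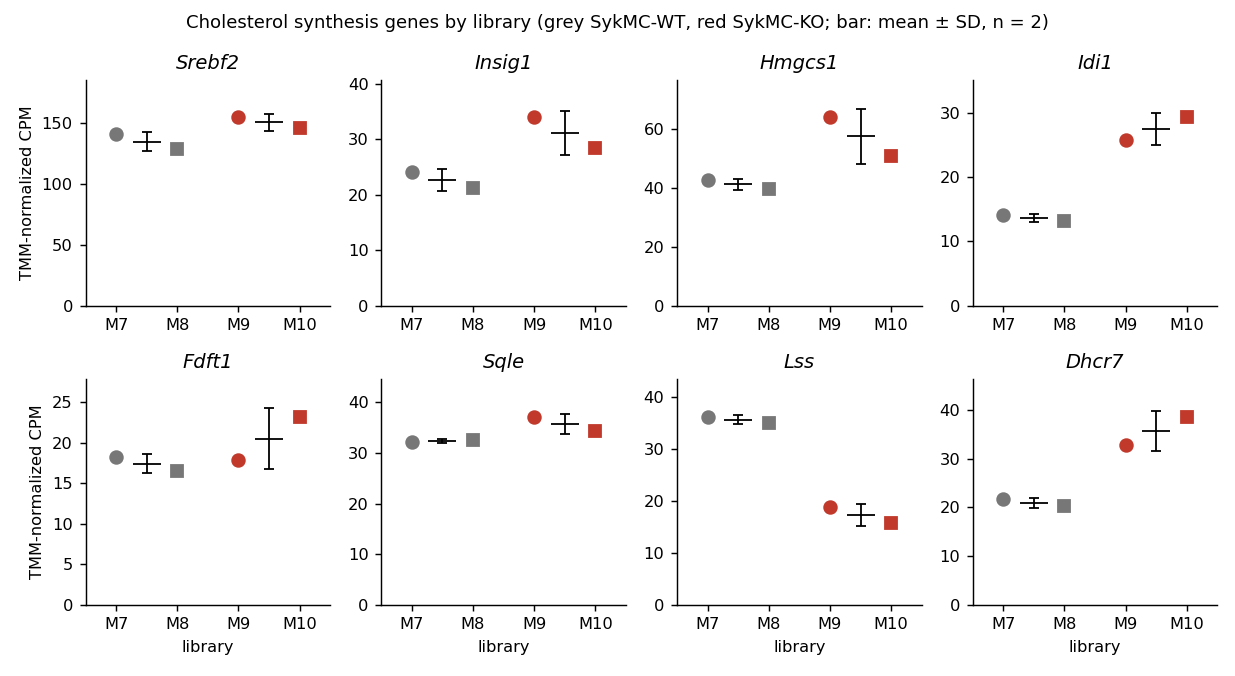
TMM-normalized CPM of each gene in each library (grey, SykMC-WT libraries M7 and M8; red, SykMC-KO libraries M9 and M10; bars, mean ± SD, n = 2). *Idi1* and *Dhcr7* sit higher and *Lss* lower in both SykMC-KO libraries, and *Fdft1* in M9 lies between the SykMC-WT libraries.

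*Srebf2* (chromosome 15, 82147181 to 82205379, plus strand, GRCm38) encodes the transcription factor of the route. It was measured at 141 and 129 CPM in M7 and M8 and at 155 and 146 CPM in M9 and M10. Both SykMC-KO libraries lay above both SykMC-WT libraries, by little. The log2 fold change was 0.16 (SE 0.154, 95% interval -0.22 to 0.53, adjusted p = 0.451 by edgeR). *Mir33*, whose precursor lies in an intron of *Srebf2*, had no count in any library, and its mature RNA is not captured by such libraries.

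*Insig1* (chromosome 5, 28071363 to 28078662, plus strand) encodes an anchor that retains SCAP and SREBP in the endoplasmic reticulum and is itself a target of SREBP2. Its levels were 24.1 and 21.2 CPM in M7 and M8 and 33.9 and 28.3 CPM in M9 and M10. The groups did not overlap, but the difference did not pass the threshold over all genes (log2 fold change 0.46, SE 0.184, 95% interval 0.02 to 0.90, adjusted p = 0.0912 by edgeR). The log2 fold change was 0.24 without M9 (adjusted p = 0.32) and 0.60 without M10 (adjusted p = 0.00978).

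*Hmgcs1* (chromosome 13, 119690379 to 119708260, plus strand) encodes the cytosolic synthase that makes HMG-CoA, the first step committed to mevalonate. It was measured at 42.5 and 39.7 CPM in M7 and M8 and at 63.9 and 50.9 CPM in M9 and M10. Again both SykMC-KO libraries were higher, M9 more than M10. The log2 fold change of 0.48 (SE 0.175, 95% interval 0.06 to 0.91) had an adjusted p = 0.0701 by edgeR. It was 0.22 without M9 (adjusted p = 0.292) and 0.65 without M10 (adjusted p = 0.00323).

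*Idi1* (chromosome 13, 8885501 to 8892451, plus strand) encodes the isomerase that interconverts the 5-carbon isoprenoid units. It rose in SykMC-KO, from 14.1 and 13.1 CPM in M7 and M8 to 25.7 and 29.3 CPM in M9 and M10. Its mean went from 13.6 ± 0.657 to 27.5 ± 2.5 CPM (SD, n = 2), a 2.02-fold difference (log2 1.01, SE 0.189, 95% interval 0.56 to 1.47, adjusted p = 0.00871 by edgeR). Of all genes tested, 64.0% had a smaller absolute log2 fold change. *Idi2*, a neighbouring paralog that could share reads, had no count in any library. The call was lost without M7 (log2 1.06) and without M8 (log2 0.96), though the estimate moved little. It was also lost when libraries were scaled by total counts alone (log2 0.47).

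*Fdft1* (chromosome 14, 63145150 to 63179578, minus strand) encodes squalene synthase, the step that commits the route to sterols. It was measured at 18.2 and 16.5 CPM in M7 and M8 and at 17.8 and 23.2 CPM in M9 and M10, so M9 lay within the SykMC-WT range. The log2 fold change was 0.24 (SE 0.216, 95% interval -0.29 to 0.76, adjusted p = 0.42 by edgeR). *Fdft1* shares 774 exon bases with *Ctsb* (cathepsin B) on the opposite strand, which had 22958 to 33952 counts in SykMC-WT and 60077 to 129818 in SykMC-KO against 366 to 500 for *Fdft1*. Whether the counting used strand is not given in the sources used here, so the *Fdft1* values are uncertain.

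*Sqle* (chromosome 15, 59315077 to 59331192, plus strand) encodes squalene epoxidase, one of the slow steps of the route. It was measured at 32.1 and 32.6 CPM in M7 and M8 and at 37.2 and 34.3 CPM in M9 and M10. Its log2 fold change was 0.14 (SE 0.157, 95% interval -0.23 to 0.52, adjusted p = 0.499 by edgeR). With TMM, 11.6% of the genes tested had a smaller absolute change.

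*Lss* (chromosome 10, 76531588 to 76557138, plus strand) encodes lanosterol synthase, which closes squalene epoxide into the first sterol ring system. It fell from 36.3 and 35.1 CPM in M7 and M8 to 18.8 and 15.8 CPM in M9 and M10. Both SykMC-KO libraries were near one level, well under both SykMC-WT libraries. The mean was 35.7 ± 0.899 CPM in SykMC-WT and 17.3 ± 2.11 CPM in SykMC-KO (SD, n = 2), a ratio of 0.485 (log2 -1.05, SE 0.178, 95% interval -1.47 to -0.62, adjusted p = 0.00638 by edgeR). It was lower in every alternative run, and without M8 the call was lost (log2 -1.08). The scalings by total counts and by marker lists moved genes downward, so they could hardly have turned a gene lower with TMM. The antisense gene *4930483K19Rik* shares 381 exon bases with it but had at most 7 counts in a library, against 290 to 997 for *Lss*.

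*Dhcr7* (chromosome 7, 143823145 to 143848410, plus strand) encodes the reductase of the last step, from 7-dehydrocholesterol to cholesterol. It rose from 21.7 and 20.2 CPM in M7 and M8 to 32.8 and 38.6 CPM in M9 and M10. The mean was 20.9 ± 1.07 CPM in SykMC-WT and 35.7 ± 4.11 CPM in SykMC-KO (SD, n = 2), a 1.71-fold difference (log2 0.77, SE 0.175, 95% interval 0.35 to 1.19, adjusted p = 0.0165 by edgeR). The call was lost without M7 (log2 0.82) and without M8 (log2 0.71), though the estimate moved little. It was also lost with scaling by total counts (log2 0.23).

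**Figure D2:**
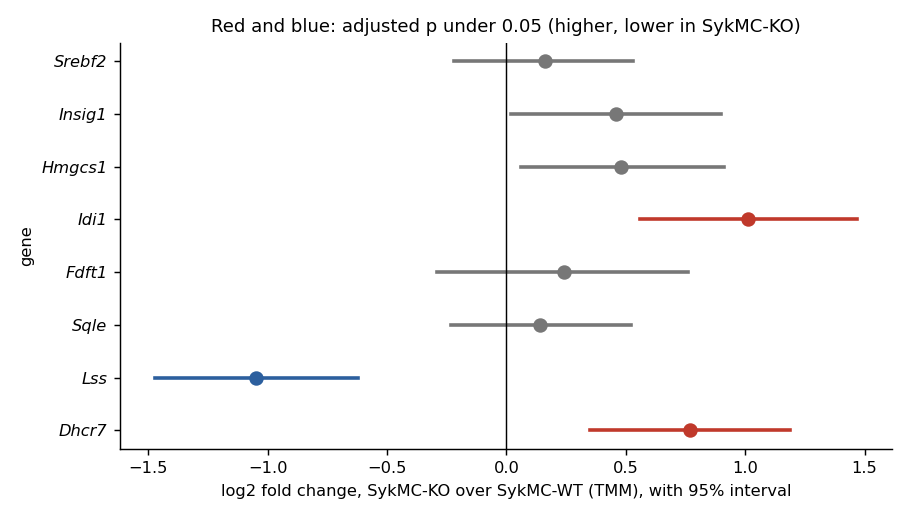
Log2 fold change of each gene, SykMC-KO over SykMC-WT, after TMM scaling (points) with its 95% interval (bars). The intervals of *Idi1*, *Dhcr7* and *Lss*, drawn in color, stand for adjusted p under 0.05, and those of *Srebf2*, *Fdft1* and *Sqle* span 0.

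In 7 of the 8 genes the libraries of the genotypes did not overlap, 6 of them higher and *Lss* lower in SykMC-KO. Over all genes tested the corresponding shares with TMM were 75.2% in either direction, 38.0% higher and 37.2% lower. With DESeq2's size factors 5 of the 8 did not overlap, and no share of all genes is given here for that scaling. An exact permutation test of one gene, two-sided and with 2 libraries against 2, cannot go below p = 0.333.

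Levels were compared between genes per length, as CPM per 1000 exon bases. In SykMC-WT the mean level was 18.8 for *Srebf2*, 8.94 for *Hmgcs1*, 7.32 for *Insig1* and 5.84 for *Sqle*, and then 4.11 for *Fdft1*, 3.88 for *Idi1*, 3.60 for *Dhcr7* and 3.31 for *Lss*. Of these neighbours, *Fdft1* and *Idi1* overlapped between libraries. In SykMC-KO, *Idi1* (7.84) stood above *Sqle* (6.45) and *Dhcr7* (6.14), the last of which overlapped *Sqle*, and *Lss* was lowest at 1.60. The exon length of *Lss*, 10787 bases over all annotated transcripts, is the longest of the set and lowers its level on this scale.

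Because TMM factors differed between the genotypes (1.22 and 1.19 in M7 and M8, 0.876 and 0.787 in M9 and M10), the genes were also compared within each library, where no scaling enters. Relative to the geometric mean of the 8 genes, *Lss* fell by 1.32 on the log2 scale in SykMC-KO, *Idi1* rose by 0.74 and *Dhcr7* by 0.49, as differences of means with no test. *Insig1* and *Hmgcs1* were 0.18 and 0.20 higher, and *Srebf2*, *Sqle* and *Fdft1* were -0.12, -0.13 and -0.05 relative to SykMC-WT. The ratio of *Idi1* to *Lss* counts was 0.387 and 0.375 in M7 and M8 and 1.37 and 1.85 in M9 and M10, a 4.23-fold difference. The ratio of *Dhcr7* to *Lss* was 0.597 and 0.575 against 1.75 and 2.44, whereas that of *Sqle* to *Srebf2* was 0.228 and 0.252 against 0.239 and 0.236. *Lss*, *Idi1* and *Dhcr7* thus had the largest differences in their share of the pathway among the 8 genes. Dividing by the geometric mean shifts all 8 genes of a library alike and keeps their order, so this is not a separate check. The ratios to *Lss* pair genes already called in opposite directions with TMM.

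**Figure D3:**
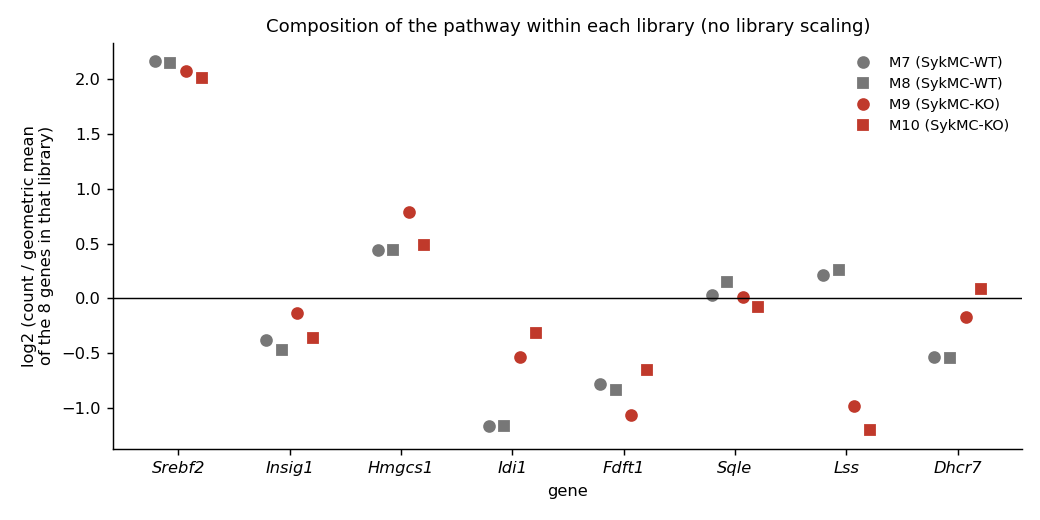
Log2 ratio of each gene's count to the geometric mean of the 8 genes in the same library (grey, SykMC-WT; red, SykMC-KO; circles M7 and M9, squares M8 and M10). *Lss* lies at 0.21 and 0.26 in SykMC-WT and at -0.98 and -1.20 in SykMC-KO, while *Idi1* and *Dhcr7* move up.

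The direction of the other genes depended on the scaling. When libraries were scaled by total counts, *Srebf2*, *Insig1*, *Hmgcs1*, *Fdft1* and *Sqle* had negative log2 fold changes, and when scaled to the 10 macrophage markers or to 6 pan-leukocyte genes, all 8 genes were lower in SykMC-KO, *Idi1* and *Dhcr7* included (log2 -1.68 and -1.92 with the macrophage markers). These scalings moved the median of all genes as well, to -0.52, -2.70 and -3.33. Relative to that median, 7 of the 8 genes stood above and *Lss* below under each scaling. A scaling shifts nearly all genes alike and subtracting the median largely undoes it, so this agreement is not a separate check. The marker scalings assume that the RNA of these genes comes from macrophages or leukocytes, and the part of the macrophage, fibroblast and other marker levels in the values of the 8 genes was not tested.

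**Figure D4:**
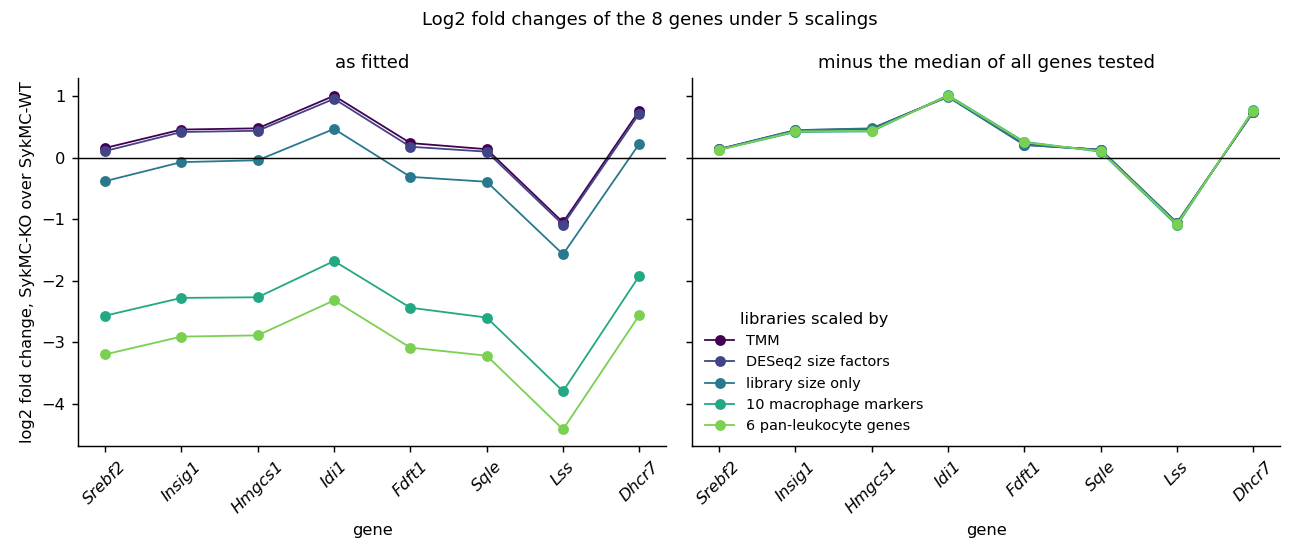
Log2 fold changes of the 8 genes under 5 library scalings, as fitted (left) and after subtracting the median log2 fold change of all genes tested (right). The curves are shifted on the left, where TMM gives 1.01 for *Idi1* and the macrophage markers give -1.68. On the right they nearly coincide by construction, since subtracting the median largely undoes a scaling, with *Lss* the only gene below 0.

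The other genes of the pathway were taken from 6 lists, whose counts of calls stand against 22.7% higher and 16.7% lower among all genes tested. Of 5 genes that control SREBP, 0 were higher (edgeR; 0 at an unadjusted p under 0.05 and 0 with DESeq2) and 2 were lower (3 with DESeq2), with a list median of -0.55 and values from -0.74 to 0.10. *Scap*, the escort of SREBP, was 77.2 ± 1.62 CPM in SykMC-WT and 52.8 ± 1.69 CPM in SykMC-KO (log2 -0.55, adjusted p = 0.0269). *Mbtps1*, the site-1 protease, had a log2 fold change of -0.74 (adjusted p = 0.04), and both calls were lost without M7 and without M8. The paralogs of 2 of the 8 genes, chosen after their values were seen, were near the threshold: *Insig2* had a log2 fold change of -0.67 (adjusted p = 0.0679) and *Srebf1* of -0.51 (adjusted p = 0.0522). Both passed with either other filter on low counts, without mitochondrial and rRNA-like genes and with scaling by total counts. They also passed with scaling to macrophage or pan-leukocyte genes, where 14200 and 14995 of all 16451 genes were called lower. Neither passed in edgeR with DESeq2's size factors. By DESeq2's own test *Srebf1* passed (adjusted p = 0.0476) and *Insig2* did not (adjusted p = 0.0592). Leaving out 1 library at a time, *Insig2* ranged from -0.99 to -0.42 and *Srebf1* from -0.65 to -0.37. The ratio of *Insig2* to *Insig1* counts was 1.54 and 1.26 in M7 and M8 and 0.675 and 0.6 in M9 and M10.

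Of 15 other synthesis enzymes, 0 were higher by edgeR (4 at an unadjusted p under 0.05, 0 with DESeq2) and 1 was lower, with a median of 0.14. No share of all genes at that unadjusted threshold is given here, so the 4 cannot be set against a background. The enzyme that fell was *Hsd17b7*, a 3-keto reductase of sterol demethylation that acts after lanosterol synthase (34.5 ± 2.08 against 19.3 ± 2.04 CPM, log2 -0.84, adjusted p = 0.0126), a call lost without M7 and without M8. *Acat2*, the cytosolic thiolase at the start of the route, and *Cyp51*, the lanosterol demethylase, had log2 fold changes of -0.26 and -0.28 and were not called.

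Of 12 genes of uptake and intracellular transport, 2 were higher and 1 was lower, with a median of 0.08. *Vldlr*, a receptor for triglyceride-rich lipoproteins, fell from 34 ± 8.19 to 4.44 ± 1.2 CPM (log2 -2.93, adjusted p = 0.0014). *Lipa*, the lysosomal lipase that frees cholesterol from its esters, rose by 1.28 on the log2 scale (adjusted p = 0.0118), and *Npc2*, which hands cholesterol out of the lysosome, by 1.01 (adjusted p = 0.0216), both with TMM, and both calls were lost without M8 and with scaling by total counts. Without M9 these values were 0.81 and 0.64.

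The genes that export sterols were higher in SykMC-KO with TMM, in 4 of 5 cases, with a median of 2.03 and 0 lower (edgeR; 0 at an unadjusted p under 0.05 and 0 with DESeq2). *Abcg1*, an exporter to HDL, went from 16.4 ± 2.45 to 139 ± 26 CPM (log2 3.08, adjusted p = 0.000674). *Nr1h3*, which encodes LXR alpha, had a log2 fold change of 2.43 (adjusted p = 0.0015), *Apoe*, a sterol acceptor, of 2.03 (adjusted p = 0.00671) and *Abca1*, the exporter to lipid-poor apolipoproteins, of 1.24 (adjusted p = 0.021). The *Abca1* call was lost without M7 (adjusted p = 0.0815) and with scaling by total counts (log2 0.73), and its value was 0.64 without M9. Scaled to the macrophage markers, *Abcg1* was at 0.34 and *Nr1h3*, *Apoe* and *Abca1* were at -0.22, -0.75 and -1.62. The macrophage markers, with summed levels of 917 to 1290 against 6220 to 10400 CPM and a median log2 fold change of 2.82, moved with this list, and their part in it was not tested.

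Among 7 genes of storage and oxysterols, 3 were higher and 1 lower with TMM, with a median of 1.16. *Soat1*, which esterifies cholesterol, rose by 1.16 on the log2 scale (adjusted p = 0.00783), *Nceh1*, an ester hydrolase, by 1.61 (adjusted p = 0.00811) and *Ch25h*, which makes 25-hydroxycholesterol, by 3.08 (adjusted p = 0.00451). *Cyp46a1*, the cholesterol 24-hydroxylase, fell by 2.08 (adjusted p = 0.0224), a call lost without M7. Leaving out 1 library, *Ch25h* ranged from 2.21 (without M9) to 3.59 (without M10), *Nceh1* from 1.01 to 2.0 and *Cyp46a1* from -1.57 to -3.06, and with scaling by total counts the *Soat1* call was lost (log2 0.64, adjusted p = 0.0819). *Soat1* and *Nceh1* turned to -1.63 and -1.21 under macrophage scaling and *Ch25h* went to 0.23.

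Of 10 genes of fatty acid synthesis, targets of the sister factor SREBP1, 0 were higher by edgeR (0 at an unadjusted p under 0.05 and 0 with DESeq2) and 2 were lower, with a median of -0.06. *Acss2*, the cytosolic acetyl-CoA synthetase, fell by 1.06 (adjusted p = 0.00627) and *Me1*, the NADPH-making malic enzyme, by 0.84 (adjusted p = 0.00873), the first call being lost without M8 and the second without M7 and without M8. *Acly*, ATP citrate lyase, and *Fads1*, a desaturase, each had a log2 fold change of 0.32 and were not called. Over all 54 genes outside the set of 8, 9 were higher and 7 lower, shares under those of all genes tested (22.7% and 16.7%), and 38 were not called.

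**Figure D5:**
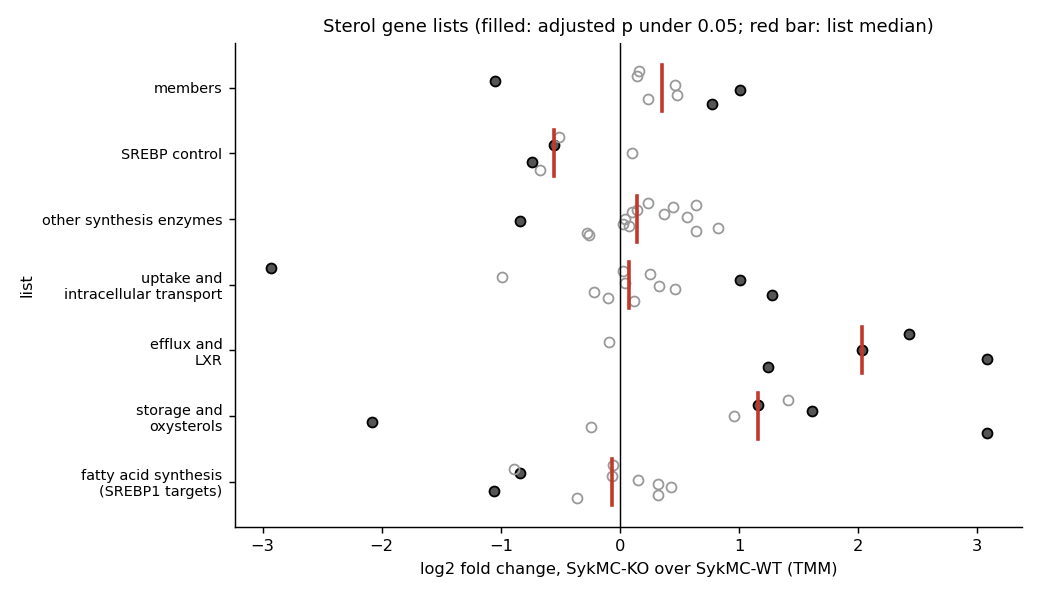
Log2 fold change with TMM of every gene in the 8-gene set (labelled members) and in the 6 other lists (each point a gene; filled, adjusted p under 0.05; red bar, list median). The efflux and LXR list has its median at 2.03, whereas the synthesis lists have theirs at 0.35 and 0.14.

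The profile most like the mean of the 8 genes was sought among 9980 tested genes of at least 10 CPM, by the Euclidean distance of centred log2 CPM over the 4 libraries. The mean profile was -0.09, -0.18, 0.15 and 0.12 in M7 to M10, a small difference between genotypes. The nearest genes were *Bms1* (distance 0.0044), *Smad2*, *Zc3hc1*, *Chaf1a* and *Ide* (distance 0.0378). With 4 libraries in 2 groups, many genes share so flat a profile.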

How the data were processed

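RNA sequencing of libraries described as TAMs and labelled SykMC-WT and SykMC-KO (2 libraries each) was analysed. Reads had been aligned by the authors to mm10 (STAR) and quantified (Salmon) in bcbio, and the submitters' processing notes list STAR 2.6.1d and Salmon 1.4.0. The deposited values are whole-number counts per Ensembl gene, not normalized, and how they were made whole is not given in the sources used here. The methods describe single reads in triplicate, whereas the labels describe paired 150-base reads and 2 libraries per genotype.

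Symbols matched 54409 of 54532 genes, and positions and exon lengths came from GENCODE M21 (GRCm38). In R 4.3.3, genes passing filterByExpr were TMM-scaled and compared with edgeR 4.0.16 (glmQLFit and glmQLFTest, Benjamini-Hochberg adjustment over 16451 genes, threshold 0.05). DESeq2 1.42.0, 4 other scalings, leaving out mitochondrial and rRNA-like genes, other filters and thresholds and leaving out each library were alternatives. Replicate libraries differed by more than sampling noise (chi-square per degree of freedom 51.2 and 170). Nothing says that libraries came from separate animals, so p-values measure the spread between these samples, which may be technical. Motifs were searched as letters.

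The 8 genes, the lists and the tests were chosen with earlier results of these data known. The genes named from the other lists were those past the threshold, at most 4 in each direction, those whose libraries did not overlap against the direction of the rest of their list, and the 5 nearest profiles; *Insig2* and *Srebf1* were added after their values were seen. A gene that this rule names is not reported here.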

Additional observations from a re-analysis of the deposited data

How the results depend on the processing

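The library scaling set the direction of most genes. With total counts alone, the median log2 fold change of the 8 genes was -0.19, 0 were called higher (edgeR; 0 at an unadjusted p under 0.05), and *Srebf2* (-0.38), *Insig1* (-0.07), *Hmgcs1* (-0.04), *Fdft1* (-0.31), *Sqle* (-0.39), *Acly* (-0.21) and *Fads1* (-0.22) turned negative. The other lists then had 5 genes higher and 17 lower, and all genes 1677 and 5411. Scaled to 10 macrophage markers, the median of the 8 genes was -2.36, 0 were higher (0 at an unadjusted p under 0.05) and 8 lower, the other lists had 0 higher and 48 lower, and all genes 137 and 14200. The genes that turned were *Srebf2* (-2.57), *Insig1* (-2.28), *Hmgcs1* (-2.27), *Idi1* (-1.68), *Fdft1* (-2.44), *Sqle* (-2.60), *Dhcr7* (-1.92), *Npc2* (-1.74), *Lipa* (-1.50), *Nr1h3* (-0.22), *Apoe* (-0.75), *Abca1* (-1.62), *Nceh1* (-1.21), *Soat1* (-1.63), *Acly* (-2.44) and *Fads1* (-2.39). Scaled to 6 pan-leukocyte genes, the median was -3.00, again with 0 higher (0 at an unadjusted p under 0.05) and 8 lower, the other lists had 0 higher and 51 lower, and all genes 75 and 14995. There *Srebf2* (-3.20), *Insig1* (-2.91), *Hmgcs1* (-2.89), *Idi1* (-2.32), *Fdft1* (-3.09), *Sqle* (-3.22), *Dhcr7* (-2.56), *Npc2* (-2.37), *Lipa* (-2.12), *Abcg1* (-0.29), *Nr1h3* (-0.88), *Apoe* (-1.37), *Abca1* (-2.20), *Ch25h* (-0.36), *Nceh1* (-1.81), *Soat1* (-2.24), *Acly* (-3.06), *Fads1* (-3.03) and *Syk* (-0.56) turned. Which scaling fits these libraries was not tested.

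Relative to the geometric mean of the 8 genes, an alternative chosen after seeing the data, *Srebf2* (-0.12), *Fdft1* (-0.05) and *Sqle* (-0.13) turned negative. Without mitochondrial and rRNA-like genes the median of the 8 genes was 0.26, and that of all genes was -0.07. Relative to the median of all genes it was 0.33, as in the main fit with TMM. At an adjusted p under 0.1, 4 of the 8 genes were higher, and 14 in the other lists, against 4569 of all 16451 genes tested. When the absolute log2 fold change also had to reach 1, 1 of the 8 was higher and 1 lower. The other lists then had 9 genes higher and 3 lower, and all genes 2426 and 1849. Leaving out one library at a time, the median ranged from 0.23 to 0.42, the genes called higher from 0 (without M7 or M8, where 2 and 1 passed an unadjusted p under 0.05) to 4 (without M10), and those called lower from 0 (without M8) to 1. The other lists ranged from 7 to 14 higher and from 2 to 12 lower, and all genes from 1478 to 5010 higher and from 807 to 4745 lower. A fit that leaves 1 library in a genotype assumes that it varies like the other genotype's pair. *Lss* kept its direction in every alternative, as did the other named genes that were lower with TMM. The scalings by total counts and by marker lists moved genes downward, so they could hardly have turned these genes. Depth limits little here, since the 8 genes had at least 290 counts in each library. No paired analysis was possible because the labels give no replicate numbers shared by the genotypes.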
